A study of Homo sapiens with 24 samples.

Results

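The genes described here encode the MHC class II antigen presentation machinery: the class II chains HLA-DRA and HLA-DPA1, the invariant chain CD74, and the peptide exchange factor HLA-DM, made of HLA-DMA and HLA-DMB. Illumina probes were taken as members by their gene: 3 probes for CD74, 2 for HLA-DRA and 1 each for HLA-DPA1, HLA-DMA and HLA-DMB, which gave 8 of the 47323 probes on the array and 5 of the 20046 genes they name. All 8 were among the 20027 probes tested and were detected on all 24 arrays at a detection p under 0.01. The arrays held RNA of 4 Hodgkin lymphoma (HL) cell lines. These had been exposed for 24 hours to vehicle or to AEZS-136 at 10 μM, a compound described as a dual inhibitor of PI3K and ERK. In the paper's blots of earlier times at this dose, phosphorylated ERK1/2 fell in SUP-HD1 and L-540 and rose in L-428 and KM-H2. Phosphorylation of PI3K and its targets dropped in all 4 lines. Cell death follows AEZS-136 in the sensitive L-540 and SUP-HD1, whereas KM-H2 and L-428 are resistant to it. Each line was represented by 3 vehicle-treated (control) and 3 AEZS-136-treated arrays. The 4 lines are established cultures from a cell bank, and each stands for itself rather than for a class of patients. The labels number the 3 arrays of a group as replicates without saying whether they come from separate cultures, so the p-values measure the spread between these samples, which may be technical. A legend of the study on selected genes, with PCR and array values at this time, speaks of independent experiments. In bulk RNA of this kind, fewer cells with a transcript and less of it per cell cannot be told apart.

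MHC class II molecules present peptides from endosomes to CD4+ T cells. Their alpha and beta chains assemble in the endoplasmic reticulum on the invariant chain, which blocks the peptide groove and directs the complex to endosomes, where proteases degrade the invariant chain to a fragment and HLA-DM exchanges that fragment for antigenic peptide. Transcription of these genes is controlled together by the class II transactivator CIITA, which acts through factors bound to the X and Y boxes of their promoters, and class II molecules are lost from the tumour cells of some patients with HL.

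The genes of HLA-DRA (chr6:32439887-32445046), HLA-DMB (chr6:32934636-32941028), HLA-DMA (chr6:32948618-32953097) and HLA-DPA1 (chr6:33064569-33080748) lie in the MHC region and CD74 on another chromosome (chr5:150401639-150412910), in RefSeq's GRCh38.p14. Promoter sequences of RefSeq were matched by symbol for 4 of the 5 genes (CD74, HLA-DMA, HLA-DMB and HLA-DPA1), and HLA-DRA was not matched. They cover 250 bases before to 50 after the annotated start. The windows from -120 to -11 of CD74 (chr5:150412921-150413030, minus strand), HLA-DMB (chr6:32941039-32941148, minus strand) and HLA-DMA (chr6:32953108-32953217, minus strand) are shown 5′ to 3′ because they hold the letters of the boxes through which these genes are controlled together, and because the transcripts shared directions in part of the lines. Capitals mark the Y box (ATTGG, or CCAAT on the other strand), the core of the X1 box (ACNGATG or CATCNGT) and a short core of the cyclic AMP response element (TGACG or CGTCA), which were searched on both strands and do not overlap here.
CD74: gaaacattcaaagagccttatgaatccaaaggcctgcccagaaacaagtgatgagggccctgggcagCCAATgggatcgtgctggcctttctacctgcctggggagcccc
HLA-DMB: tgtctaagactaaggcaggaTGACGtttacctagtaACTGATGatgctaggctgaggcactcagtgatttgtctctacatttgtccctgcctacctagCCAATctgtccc
HLA-DMA: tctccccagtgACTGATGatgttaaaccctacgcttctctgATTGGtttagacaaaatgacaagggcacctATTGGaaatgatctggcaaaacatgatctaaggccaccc
HLA-DMA and HLA-DMB had both a Y box and an X1 core in these windows, and neither motif was in the HLA-DPA1 entries. CD74 had a Y box in its window, at bases 198 to 202 of the promoter. Its only match to the letters of the X1 core lay outside the window, far upstream at bases 42 to 48. Boxes with other letters were not searched, so the X box of CD74 may lie elsewhere. Of 35116 promoters of the same length, 34.6% held a Y box, 7.65% an X1 core, 24.6% the short core of the cyclic AMP response element and 2.78% both a Y box and an X1 core. A match is a description of the letters and not of a bound site.

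The mean signal per array lay between 297.4 and 360.9, except for replicate 3 of AEZS-136-treated L-428 at 255.6, and 29.6% to 33.7% of the probes were detected per array. Without that array, 5 of the 8 probes were called in L-428 instead of 4, and the counts in the other lines were as with it. The labelled cell type was compared with markers of Hodgkin cells: IRF4, TRAF1 and FSCN1 were detected on all 6 arrays of each line, CCL17 in SUP-HD1 and L-428 only, TNFRSF8 (CD30) in L-540 only and CCL22 in no line. Among B cell markers, no line had over 1 of 11 probes detected on all its arrays.

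In vehicle-treated cells, the class II genes and CD74 were transcribed in all 4 lines. L-428 had the highest mean for each of the 8 probes. For 5 of them it lay no more than 0.16 (log2) above the next line. With median scaling of the arrays L-428 was at the top for 4 of the 8, and below SUP-HD1 for CD74 ILMN_1736567 (-0.10) and ILMN_2379644 (-0.06), KM-H2 for HLA-DRA ILMN_1689655 (-0.12) and L-540 for HLA-DMA (-0.22). HLA-DMA also lost this place with cyclic loess, with the authors' normalized values and without L-428 control replicate 1 or 3, and HLA-DRA ILMN_1689655 without control replicate 3. Signals are comparable only within a probe, so the lines were ordered probe by probe on the normalized signal, in arbitrary units. A pair of lines was counted as different at a Benjamini-Hochberg adjusted p under 0.05 in limma and a log2 difference of at least 0.4.

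HLA-DRA, the invariant alpha chain of HLA-DR, had its highest vehicle-treated levels in L-428 and KM-H2 with both probes. With ILMN_1689655 the mean log2 signal was 13.03 ± 0.24 (SD, n = 3) in L-428, 12.91 ± 0.08 in KM-H2, 12.13 ± 0.11 in L-540 and 12.08 ± 0.11 in SUP-HD1. KM-H2 stood above L-540 by 0.77 (limma, adjusted p = 7.6e-07), whereas the neighbours at the top (0.12, adjusted p = 0.37) and at the bottom (difference -0.05, adjusted p = 0.71) did not differ beyond their spread. The probe ILMN_2157441 had the same order at the top but put SUP-HD1 above L-540 by 0.40 (limma, adjusted p = 0.00063), just over the minimum. That call was lost in 19 alternatives, among them median scaling (0.30), the methods' t-test and the authors' normalized values.

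HLA-DPA1, the alpha chain of HLA-DP, covered the widest range of the 8 probes at baseline. Its mean log2 signal was 12.59 ± 0.10 (SD, n = 3) in L-428, 11.85 ± 0.13 in L-540, 11.71 ± 0.07 in KM-H2 and 10.53 ± 0.17 in SUP-HD1, a 4.16-fold range. L-540 and KM-H2 did not differ beyond their spread (-0.13, adjusted p = 0.23 in limma), and both stood apart from the lines above and below them.

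CD74 ranked the lines differently from HLA-DRA: all 3 probes gave the order L-428, SUP-HD1, L-540 and KM-H2, but L-428 and SUP-HD1 changed places for ILMN_1736567 and ILMN_2379644 with median scaling. With ILMN_1736567 the mean log2 signals were 12.84 ± 0.13 (SD, n = 3), 12.75 ± 0.21, 12.12 ± 0.19 and 12.09 ± 0.11 in this order. The step from L-540 up to SUP-HD1 was 0.63 (limma, adjusted p = 3.8e-06), and the neighbours on either side of it did not differ beyond their spread (0.09, adjusted p = 0.48, and -0.04, adjusted p = 0.78). ILMN_2379644 showed the same step, at 0.50 (adjusted p = 9.7e-06). The dim probe ILMN_1761464, with a signal of 183 to 336 in control cells, showed no step between neighbours of 0.4 or more without background correction. With normexp the steps from L-540 to SUP-HD1 (0.55) and from there to L-428 (0.47) were called, and each was also called (0.42) without 1 SUP-HD1 control array.

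HLA-DMA and HLA-DMB, which form the HLA-DM heterodimer, were both lowest in SUP-HD1. HLA-DMA did not differ beyond its spread between the other lines, with mean log2 signals of 11.15 ± 0.20 (SD, n = 3) in L-428, 11.11 ± 0.04 in L-540 and 11.10 ± 0.05 in KM-H2 against 10.35 ± 0.19 in SUP-HD1. HLA-DMB was at 10.38 ± 0.03 in L-428, 10.22 ± 0.06 in KM-H2, 9.48 ± 0.11 in L-540 and 9.08 ± 0.03 in SUP-HD1, and only L-428 and KM-H2 did not differ beyond their spread (0.16, adjusted p = 0.090 in limma). The step of 0.40 between SUP-HD1 and L-540 lay just over the minimum, and its call was lost in 4 alternatives (the authors' normalized values and 3 left-out control arrays).

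Over pairs of lines, 6 of the 8 probes differed between vehicle-treated L-540 and SUP-HD1 (33.1% of all tested probes did), 3 between L-540 and KM-H2 (35.0%), 7 between L-540 and L-428 (31.6%), 7 between SUP-HD1 and KM-H2 (34.3%), 5 between SUP-HD1 and L-428 (29.8%) and 5 between KM-H2 and L-428 (33.0%). The range of the 4 control means had a median of 0.93 on the log2 scale over the 8 probes and of 0.55 over all tested probes. The comparisons share control arrays.

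**Figure D1:**
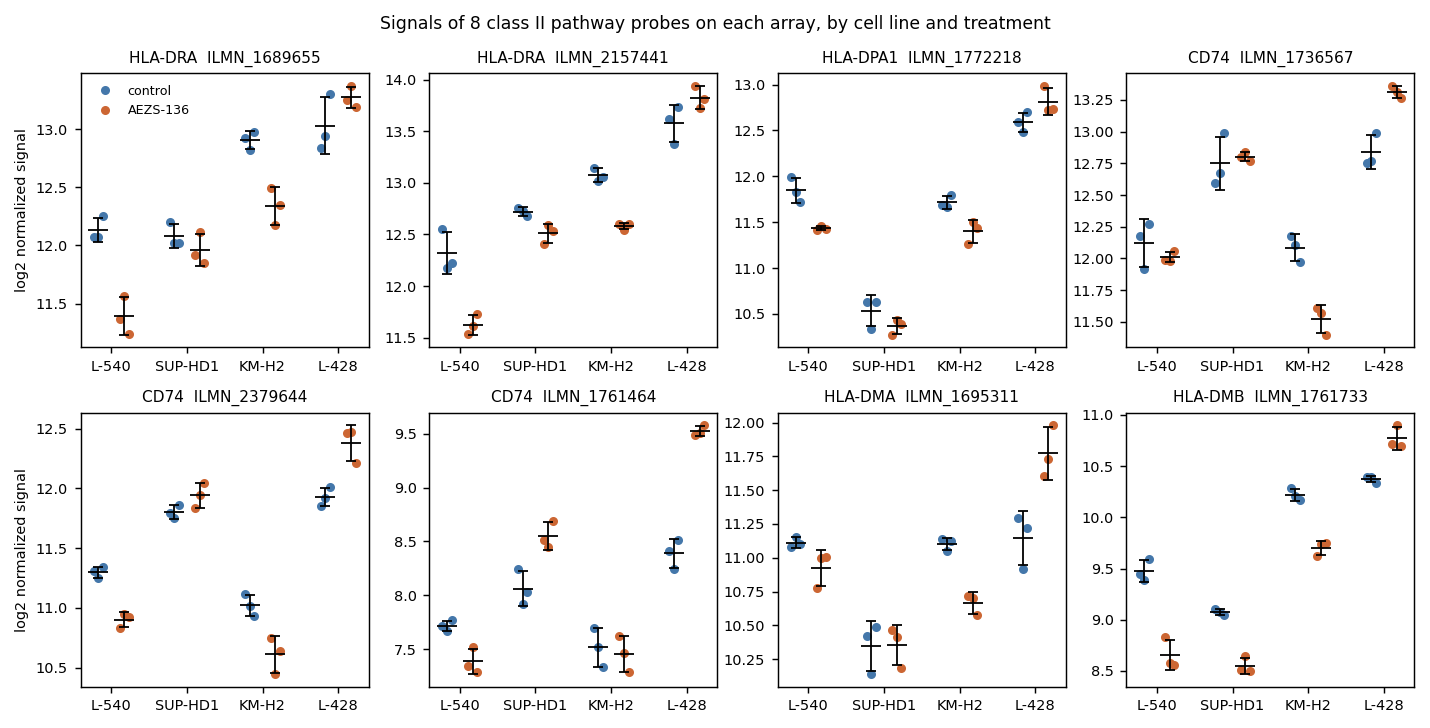
Log2 normalized signal (y axis) of each of the 8 probes on the 24 arrays, by cell line, with vehicle-treated control arrays in blue and AEZS-136-treated arrays in orange; horizontal bars are the mean and the SD of 3 arrays. The control arrays of L-428 have the highest mean in every panel (in 4 of the 8 with median scaling). The distance between L-428 and the lowest line is larger with AEZS-136 than with vehicle.

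With AEZS-136 the calls among class II genes and CD74 were all falls in L-540 and KM-H2 and all rises in L-428. In L-540, 4 of the 8 probes fell (9.96% of all tested probes fell in this line) and none rose (9.59% rose). In KM-H2, 6 fell (3.48%) and none rose (4.42%). In L-428, 4 rose (6.62%) and none fell (6.69%). The rises in L-428 were those of the CD74 probes and HLA-DMA, and no probe for HLA-DRA, HLA-DPA1 or HLA-DMB was called there. The falls in L-540 were those of both HLA-DRA probes, HLA-DPA1 and HLA-DMB, without CD74. Probes of the same gene are counted singly here, so these are counts of probes and not of genes. SUP-HD1 had 1 probe that fell (6.26%) and 1 that rose (6.51%). The median log2 fold change of the 8 probes was -0.40 for L-540, -0.46 for KM-H2, -0.06 for SUP-HD1 and 0.42 for L-428, where the median of all tested probes was within 0.01 of 0 in each line. All 8 estimates were below 0 in L-540 and KM-H2, and all 8 were above 0 in L-428, except that the dim CD74 probe in KM-H2 turned to 0.02 with median scaling of the arrays or without treated replicate 3, and to 0.03 without control replicate 1. In KM-H2, median scaling also changed the split of calls over all tested probes, from 697 lower among 1582 to 445 lower among 1703. The 3 treated arrays lay on 1 side of the 3 control arrays for 7 probes in L-540 (45.6% of all tested probes), 7 in KM-H2 (31.6%), 6 in L-428 (37.2%) and 3 in SUP-HD1 (36.8%). A fold change was counted as a rise or fall at an adjusted p under 0.05 in limma and a log2 difference of at least 0.4.

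HLA-DRA fell in L-540 and KM-H2 with both probes. In L-540 the signal of ILMN_1689655 was 4317, 4300.5 and 4891 on the control arrays and 2650, 3029 and 2423 on the treated arrays. Every treated array lay below every control array, and the fall was 0.74 ± 0.11 (SE) on the log2 scale, or 1.67-fold (limma, adjusted p = 3.5e-06). In KM-H2 the signal was 7785, 7249 and 8047 on the control arrays and 5781, 4614 and 5226 on the treated arrays. The groups did not overlap, and the log2 signal fell by 0.57 ± 0.11 (adjusted p = 0.00036 in limma). In L-428 the control arrays read 7329, 7863 and 10112 and the treated arrays 9754, 10602 and 9355. These groups overlapped because of the highest control array, and the log2 fold change of 0.24 ± 0.11 did not pass the test (limma, adjusted p = 0.099).

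The other HLA-DRA probe, ILMN_2157441, gave like values. It fell by 0.70 ± 0.09 (SE) (log2) in L-540 (limma, adjusted p = 9.4e-07) and by 0.49 ± 0.09 in KM-H2 (adjusted p = 0.00034). In L-428 its log2 fold change was 0.25 ± 0.09 (adjusted p = 0.046), under the minimum of 0.4, and in SUP-HD1 the probes were at -0.12 and -0.21 with adjusted p of 0.49 and 0.10.

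HLA-DPA1 had smaller changes than HLA-DRA in L-540 and KM-H2. Its signal in L-540 was 4062, 3636 and 3378 on the control arrays and 2736, 2813 and 2753 on the treated arrays. The groups did not overlap, and the fall of 0.41 ± 0.09 (SE) on the log2 scale passed both thresholds (limma, adjusted p = 0.00071), but it was 0.34 and under the minimum without the highest control array, replicate 1. The log2 fold changes of -0.31 in KM-H2 (adjusted p = 0.016), -0.17 in SUP-HD1 (adjusted p = 0.20) and 0.22 in L-428 (adjusted p = 0.072) were not called.

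The 3 probes for CD74 are paired with 2 different RefSeq transcripts (ILMN_1736567 and ILMN_1761464 with one, ILMN_2379644 with the other), and they did not move by the same amount. CD74 rose in L-428 with all 3. On the arrays of L-428, ILMN_1736567 read 6919, 6984 and 8140 in control cells and 10526, 10166 and 9821 in treated cells. All treated arrays lay above all control arrays, a rise of 0.47 ± 0.10 (SE) on the log2 scale (limma, adjusted p = 0.00045). The dim probe ILMN_1761464 read 341, 304 and 365 in control cells and 719, 726 and 766 in treated cells. This 2.20-fold rise (log2 1.13 ± 0.10, limma adjusted p = 2.9e-09) was the largest response among the 8 probes in any line. ILMN_2379644 rose by 0.45 ± 0.08 (adjusted p = 0.00013), and by 0.35, under the minimum, with median scaling.

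In KM-H2 CD74 fell with the brighter probes and not with the dim one. The signal of ILMN_1736567 was 4636, 4419 and 4011 on the control arrays and 3114, 3042 and 2694 on the treated arrays. These groups did not overlap either, and the log2 signal fell by 0.56 ± 0.10 (SE) (limma, adjusted p = 0.00011). The methods' t-test, run here on the quantile-normalized values, lost this call (adjusted p = 0.060). ILMN_2379644 fell by 0.41 ± 0.08 (adjusted p = 0.00067), a call that was lost without control replicate 1 (0.36 lower) or treated replicate 2 (0.33 lower). ILMN_1761464 was at -0.06 ± 0.10 with overlapping arrays (adjusted p = 0.77), and the difference between the probes was not tested.

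No CD74 probe was called in L-540, where the log2 fold changes were -0.11 (adjusted p = 0.42 in limma), -0.33 (adjusted p = 0.011) and -0.40 (adjusted p = 0.00035). The second, that of the dim probe ILMN_1761464, was at -0.62 and called with normexp background correction. The last of them, that of ILMN_2379644, lay just under the minimum and passed it with median scaling (-0.55), cyclic loess (-0.45) or the normalized values of the authors (-0.48). In SUP-HD1, ILMN_1761464 read 302, 242 and 261 on the control arrays and 365, 349 and 413 on the treated arrays. It rose by 0.49 ± 0.10 (SE) on the log2 scale with no overlap (limma, adjusted p = 0.00056), and the brighter CD74 probes were at 0.05 and 0.14 with adjusted p of 0.78 and 0.24.

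HLA-DMB was called in 3 lines, more than any other single probe. It read 699, 671 and 774 on the control arrays of L-540 and 455, 383 and 377 on the treated arrays. The fall of 0.82 ± 0.08 (SE) on the log2 scale, or 1.77-fold, was the largest among the 8 probes in any line (limma, adjusted p = 2.7e-09). SUP-HD1 had 552, 538 and 530 on the control arrays and 363, 399 and 361 on the treated arrays. Here HLA-DMB fell by 0.53 ± 0.08 (adjusted p = 9.2e-06), the 1 fall among the 8 probes in this line. KM-H2 had 1245, 1181 and 1152 on the control arrays and 788, 854 and 859 on the treated arrays, a fall of 0.52 ± 0.08 (adjusted p = 1.8e-05). L-428 went the other way, with 1346, 1347 and 1295 on the control arrays and 1687, 1913 and 1657 on the treated arrays. Its groups did not overlap and the log2 fold change of 0.396 ± 0.08 had an adjusted p of 0.00027 in limma, but it lay under the minimum of 0.4 and was not called, and it passed at 0.44 without treated replicate 3.

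HLA-DMA, the partner chain of HLA-DMB, was not called with it in L-540 or SUP-HD1. It was at a log2 fold change of -0.18 ± 0.11 (SE) in L-540 (limma, adjusted p = 0.20) and 0.01 ± 0.11 in SUP-HD1 (adjusted p = 0.98), where the sign turned with median scaling (-0.09), cyclic loess, the authors' normalized values and 3 of the left-out arrays. KM-H2 read 2250, 2119 and 2227 on the control arrays and 1682, 1669 and 1525 on the treated arrays. HLA-DMA fell there by 0.44 ± 0.11 (adjusted p = 0.0040), and by 0.39, under the minimum, without treated replicate 3. L-428 read 2515, 1935 and 2391 on the control arrays and 3114, 3393 and 4048 on the treated arrays. The rise of 0.63 ± 0.11 (adjusted p = 5.3e-05) came with the widest spread of both groups among the 4 lines, without overlap between them.

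**Figure D2:**
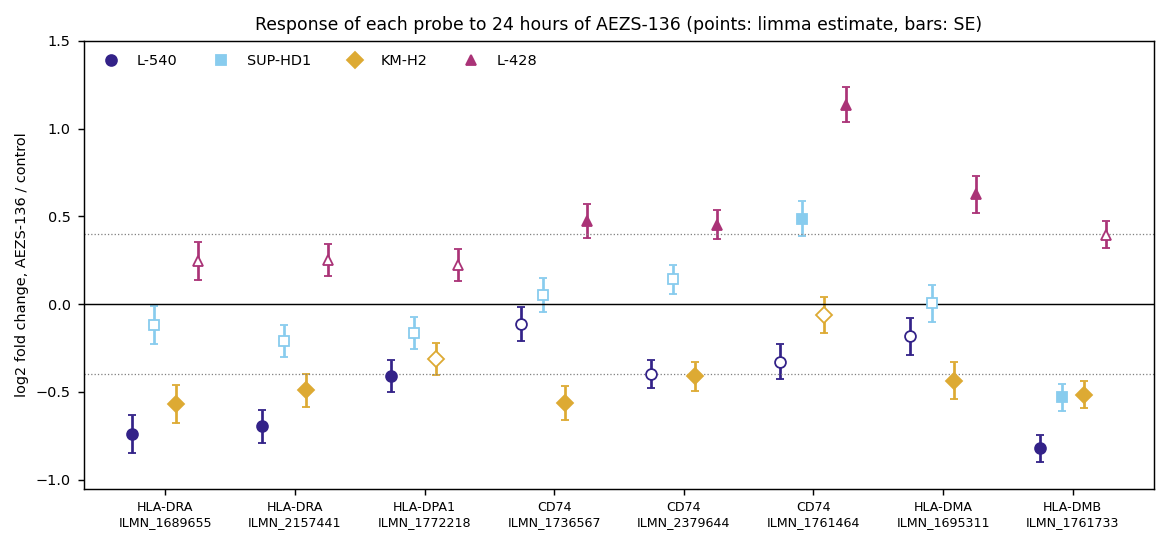
Log2 fold change of each of the 8 probes after 24 hours of AEZS-136 against vehicle (y axis), with the limma estimate as a point and its SE as a bar; filled symbols passed both thresholds and dotted lines mark a log2 difference of 0.4. All 8 triangles of L-428 lie above 0 and all 8 symbols of L-540 and of KM-H2 below it, and those of SUP-HD1 lie on both sides.

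The difference of responses between lines was tested in the same model. The response of L-428 exceeded that of KM-H2 for all 8 probes, by 0.54 for HLA-DPA1 to 1.20 for the dim CD74 probe on the log2 scale (8.85% of all tested probes differed between these lines). It exceeded that of L-540 for all 8 as well, by 0.59 for CD74 ILMN_1736567 to 1.46 for CD74 ILMN_1761464 (12.8%). L-428 exceeded SUP-HD1 for 5 of the 8 (8.35%), among them HLA-DMB by 0.92 ± 0.11 (SE; limma, adjusted p = 1.7e-06) and HLA-DMA by 0.62 ± 0.15 (adjusted p = 0.0068). The adjusted p of the other 3 was between 0.053 and 0.14.

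Between L-540 and SUP-HD1 4 probes differed in response (12.0%), both for HLA-DRA and 2 for CD74, each with the lower value in L-540. KM-H2 and SUP-HD1 differed for 3 probes (10.0%), the 3 of CD74, which were lower in KM-H2 by 0.55 to 0.61 on the log2 scale. HLA-DRA ILMN_1689655 (-0.45) and HLA-DMA (-0.44) also passed the minimum, with an adjusted p of 0.053 each in limma. They were called in 8 and 11 alternatives. L-540 and KM-H2 differed for 1 probe (14.3%), CD74 ILMN_1736567, where KM-H2 was lower by 0.45 ± 0.14 (SE; limma, adjusted p = 0.021). For HLA-DMB the responses of L-540 and KM-H2 were 0.30 ± 0.11 apart (adjusted p = 0.052), and those of SUP-HD1 and KM-H2 0.01 ± 0.11 apart (adjusted p = 0.97). Pairs that share a line share its control and treated arrays.

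Resistant and sensitive lines were compared as classes in the same model. Averaged over both resistant lines, the response differed from the average over both sensitive lines for 2 of the 8 probes (6.74% of all tested probes), by 0.61 ± 0.08 (SE) for HLA-DMB (limma, adjusted p = 2.2e-06) and 0.46 ± 0.10 for CD74 ILMN_1761464 (adjusted p = 0.0020). For both probes the resistant lines differed from each other by more than this, by 0.91 ± 0.11 and 1.20 ± 0.14.

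The levels of the lines were further apart in AEZS-136-treated than in vehicle-treated cells. From the lowest to the highest line, the control means of the 8 probes covered 1.69-fold to 4.16-fold and the treated means 2.67-fold to 5.46-fold, and the range was wider after AEZS-136 for each probe. This restates the baseline levels and responses given above and is not a separate result. How often the range widened over all tested probes was not counted. L-428 had the highest treated mean of each probe. The lowest treated mean was in L-540 for both HLA-DRA probes and the dim CD74 probe, in KM-H2 for the brighter CD74 probes, and in SUP-HD1 for HLA-DPA1, HLA-DMA and HLA-DMB.

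By the median of their probes, the other class II chains followed a like order of lines. Of 10 tested probes for the other alpha and beta chains, 4 fell in L-540 (9.96% of all tested probes fell) and 6 in KM-H2 (3.48%). None rose in these lines (9.59% and 4.42% of all tested probes rose). In L-428, 1 rose (6.62%) and none fell (6.69%). In SUP-HD1 none was called (6.51% rose and 6.26% fell). Their median log2 fold changes were -0.36 for L-540, -0.51 for KM-H2, 0.20 for L-428 and 0.01 for SUP-HD1. The probe listed for HLA-DRB3 (ILMN_1717261), a beta chain of HLA-DR, fell by 1.01 ± 0.10 (SE) (log2) in L-540 (limma, adjusted p = 1.1e-08) and by 0.91 in KM-H2, and was at 0.39 in L-428, just under the minimum. HLA-DRB4 (ILMN_1752592) fell by 0.81 in L-540 and 0.75 in KM-H2 and was at 0.31 in L-428. The probe for the pseudogene HLA-DRB6 (ILMN_2066060) fell by 0.56 in L-540 and 0.88 in KM-H2 and was at 0.11 in L-428. HLA-DRB genes are near-identical and the lines can carry different sets of them, so these probes are uncertain as to which DRB gene they read. All calls of this list in L-540 were of HLA-DRB probes. The 1 rise in L-428 was that of HLA-DOA, a chain of HLA-DO, which inhibits HLA-DM. It rose by 0.84 ± 0.11 (limma, adjusted p = 1.2e-06) and was singled out after its value was seen. The HLA-DO chains did not share the order of the medians. HLA-DOA was at 0.13 in L-540 and 0.32 in KM-H2, and HLA-DOB at 0.23 in L-540, -0.07 in KM-H2 and -0.10 in L-428, none of them called.

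CIITA, the class II transactivator, was called in 1 line and was likewise chosen after its values were seen. The CIITA probe (ILMN_1773363) had a mean signal of 210 in control and 132 in treated L-540 cells, a fall of 0.67 ± 0.07 (SE) on the log2 scale (limma, adjusted p = 2.0e-08). Its log2 fold change was -0.34 (adjusted p = 0.00094) in KM-H2, -0.15 (adjusted p = 0.14) in SUP-HD1, where it was detected on 3 of 6 arrays, and 0.31 (adjusted p = 0.0014) in L-428. All of the last 3 lay under the minimum of 0.4.

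Among 21 tested probes for class II regulators, L-540 had 1 rise (9.59% of all tested probes rose) and 3 falls (9.96% fell). SUP-HD1 had 2 rises (6.51%) and 2 falls (6.26%), KM-H2 1 fall (3.48%), and L-428 3 rises (6.62%) and 1 fall (6.69%). Counts this small were not tested against these shares. RFX5 (ILMN_1741200), a subunit of the X box binding complex RFX, rose by 0.95 ± 0.10 (SE) on the log2 scale in L-428 (limma, adjusted p = 5.9e-08) and by 0.71 in SUP-HD1, and was at -0.24 in L-540 and 0.25 in KM-H2. IRF8, a transcription factor of B and myeloid cells, fell by 1.24 ± 0.10 in L-428 (adjusted p = 1.1e-09), by 0.90 in SUP-HD1 and by 0.50 in L-540, and no array of KM-H2 had it above the detection threshold. CREB1 (ILMN_2334242), which binds cyclic AMP response elements, rose by 0.64 in SUP-HD1 and by 0.46 in L-428, and the other CREB1 probes were not called in any line.

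The processing genes had calls in both directions. Of 15 tested probes, L-540 had 2 rises (9.59% of all tested probes rose) and no fall (9.96% fell). SUP-HD1 had 3 rises (6.51%) and 1 fall (6.26%), KM-H2 2 rises (4.42%) and 1 fall (3.48%), and L-428 2 rises (6.62%) and 2 falls (6.69%). These small counts were not tested against the shares either. LGMN (legumain), an endosomal protease that cleaves antigens, rose by 1.10 ± 0.09 (SE) on the log2 scale with ILMN_2332964 in KM-H2 (limma, adjusted p = 2.9e-09) and by 0.72 in L-428. The LGMN probe ILMN_1698019 gave 1.08 and 0.87. IFI30, a lysosomal thiol reductase, fell by 0.80 in SUP-HD1 and 0.62 in L-428.

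For the signalling partners of CD74, 3 of 5 tested probes fell in each of L-540 (9.96% of all tested probes fell) and KM-H2 (3.48%). In L-428 2 fell (6.69%), in SUP-HD1 1 fell (6.26%), and none rose in any line. MIF, the cytokine for which CD74 is a receptor, fell in all 4 lines, by 0.77 ± 0.15 (SE) on the log2 scale in KM-H2 (limma, adjusted p = 0.00058), 0.65 in L-540, 0.57 in SUP-HD1 and 0.48 in L-428. CXCR4, a co-receptor of CD74 for MIF, fell with both probes in L-540 (by 0.47 and 0.43) and in KM-H2 (by 0.68 and 0.69), and was at -0.22 and 0.07 in L-428. Of 7 probes for costimulators, 1 rose in L-540 (9.59% of all tested probes rose) and 3 in SUP-HD1 (6.51%). In L-428 2 of them fell (6.69% of all tested probes fell), and KM-H2 had no call. CD86 (ILMN_1714602), a ligand of CD28, rose by 1.61 ± 0.10 in L-540 (limma, adjusted p = 8.6e-13) and by 0.87 in SUP-HD1 and fell by 0.46 in L-428. This was against the direction of the class II probes in L-540 and L-428. The CD86 probe ILMN_1672097, dim in L-540 (144 in control cells), was at 0.01 there and fell by 0.77 in L-428. ILMN_1782560 was at 0.32 in L-540, under the minimum, and at -0.05 in L-428.

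**Figure D3:**
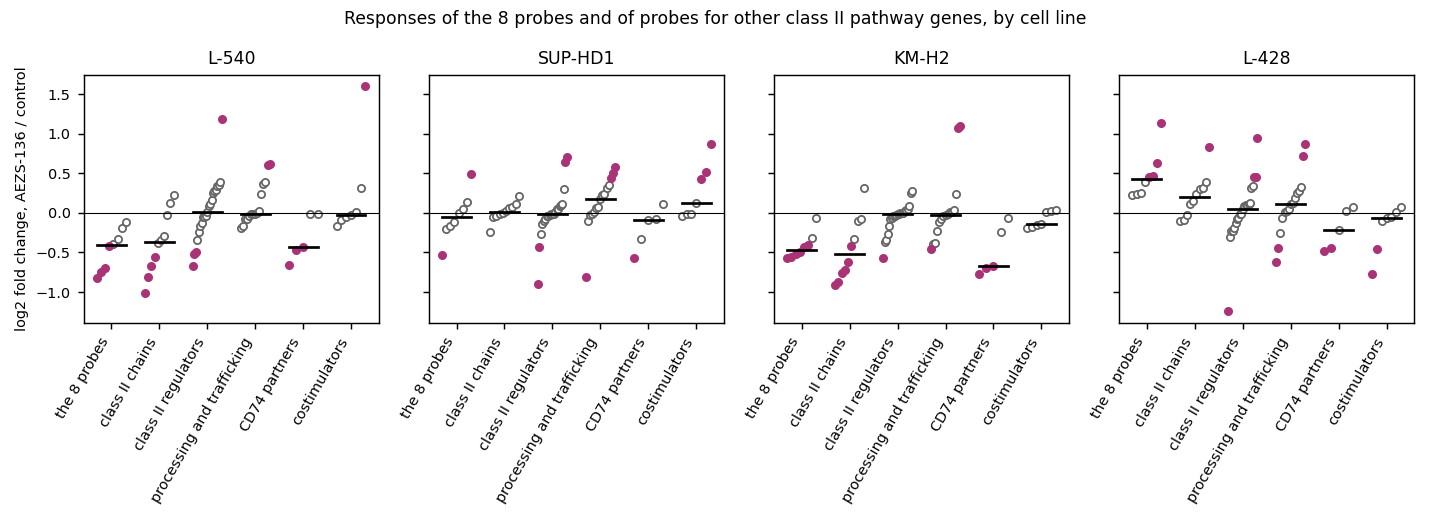
Log2 fold change of AEZS-136-treated against control cells (y axis) for the 8 probes and for the tested probes of each list of pathway genes (x axis), in 1 panel per cell line; filled points passed both thresholds and horizontal bars are medians. The 8 probes and the other class II chains have medians of -0.40 and -0.36 in L-540, -0.46 and -0.51 in KM-H2, and 0.42 and 0.20 in L-428.

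Markers of other cell types were called beside the class II probes in L-540 and KM-H2. Of the T cell list, 2 of 4 tested probes, both for CD3D, fell in KM-H2 (3.48% of all tested probes fell), and none was called in the other lines. The summed signal of the 7 T cell probes was 1929 to 2036 in control and 1237 to 1542 in treated KM-H2 cells. In the monocyte and macrophage list, 1 of 3 tested probes, that of CSF1R, fell in L-540 (9.96% of all tested probes fell). In KM-H2 1 fell, for CD14 (3.48%). The summed signals over 8 probes were 1157 to 1232 in control and 985 to 1019 in treated L-540 cells, and 1720 to 1816 and 1460 to 1608 in KM-H2. CD163 and LYZ were detected on all arrays of no line, nor were CD3E and CD3G. No B cell probe was called in any line (3.48% to 9.96% of all tested probes rose or fell, by line and direction), with summed signals over 11 probes between 1160 and 1272 in all groups. The 6 tested probes of the Hodgkin list had 1 rise (9.59% of all tested probes rose) and 1 fall (9.96% fell) in L-540 and 1 rise in SUP-HD1 (6.51%). They had 2 falls in KM-H2 (3.48%), and 1 rise (6.62%) and 1 fall (6.69%) in L-428. TRAF1 (ILMN_1698218) rose in L-540, SUP-HD1 and L-428, FSCN1 fell in L-540 and KM-H2, and CCL17 fell in KM-H2 and L-428. The small counts of these marker lists were not tested against the shares. The part of these genes in the class II results was not tested.

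The 8 probes correlated positively with each other. Over the 24 arrays, which share lines and treatments, the 28 pairs had Pearson correlations from 0.21 to 0.97 with a median of 0.62, and after each line's mean was subtracted from 0.30 to 0.89 with a median of 0.66. The tested probes most like the mean of the 8 over the 24 arrays were the unnamed ILMN_3214389 (r = 0.97), RACGAP1 (r = 0.95), CRLF2, MCM10 and MXD3 (r = 0.94 each). After subtraction of the line means they were ZSCAN2 (r = 0.89), IMPA2 (r = 0.88) and the unnamed ILMN_1695590 (r = 0.88), ILMN_3228688 and ILMN_1873034 (r = 0.87 each), with log2 fold changes for IMPA2 of -0.59 in L-540 and 0.38 in L-428.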

How the data were processed

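The lines, treatments and replicate numbers came from the submitters' labels, and dose, vehicle and sensitivity classes from the paper. The authors deposited signal intensity per probe without normalization, and beside it a detection value, a fraction read as 1 minus the detection p. They also deposited normalized log2 values (robust spline in lumi, per the methods), used as an alternative after comparison with the intensities. BeadStudio is named without a version, and the chip is not given in the sources used here. 0 value columns had no sample.

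Intensities were log2-transformed without background correction and quantile-normalized over 24 arrays. The 20027 probes detected (detection p under 0.01) on 3 or more arrays were tested in 1 limma 3.58.1 model (R 4.3.3) of 8 group means, with Benjamini-Hochberg adjustment over these probes. Calls needed an adjusted p under 0.05 and a log2 difference of at least 0.4 in size, as in the methods. Pairwise and class differences of responses were contrasts of that model. The number of arrays limits precision; the median SE of a response was 0.085. Exact tests of 3 against 3 arrays were not used. The fit was tested on simulated data. Figures were drawn with matplotlib 3.10.9.

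Probes were named from a platform annotation (30113 probes with 1 symbol, 8 with several, 17202 with none), which paired all 8 members with their genes. The members and gene lists (class II chains, regulators, processing, CD74 partners, costimulators, markers of Hodgkin, B and T cells and monocytes) were chosen with earlier results of these data known. CD74 also belongs to a gene set that the study chose on these arrays, so its direction is not independent evidence. Outside the members, probes of the lists called in at least 2 lines were named, at most 3 per list by largest change, and the 5 probes most correlated with the members' mean. Replicate numbers did not pair the samples: of 12 pairs of arrays with the same number, 2 had deviations correlated over 0.1. Alternatives were median scaling, cyclic loess, quantile normalization within lines, the authors' normalized values, normexp background with an offset of 16, other detection filters, the methods' t-test, a replicate block, no minimum fold change, and each array left out.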

Additional observations from a re-analysis of the deposited data

Results flagged for a closer look

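The responses of cell lines to AEZS-136 differed by a test of the difference itself (limma, adjusted p under 0.05 and a log2 difference of at least 0.4) in 31 cases over the 8 probes. Values are on the log2 scale. With 3 arrays per group, single arrays were not tested for lying apart.

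L-428 responded above KM-H2 by 1.03 (CD74 ILMN_1736567), 1.20 (ILMN_1761464) and 0.86 (ILMN_2379644), by 1.06 for HLA-DMA, 0.91 for HLA-DMB and 0.54 for HLA-DPA1, and by 0.81 and 0.74 for the HLA-DRA probes. It responded above L-540 by 0.59, 1.46 and 0.85 for the CD74 probes in the same order, by 0.81 for HLA-DMA, 1.22 for HLA-DMB and 0.64 for HLA-DPA1, and by 0.98 and 0.95 for HLA-DRA. Above SUP-HD1 the differences were 0.42 and 0.65 for CD74 ILMN_1736567 and ILMN_1761464, 0.62 for HLA-DMA, 0.92 for HLA-DMB and 0.46 for HLA-DRA ILMN_2157441. The call for CD74 ILMN_1736567 had an adjusted p of 0.048 and was lost in 19 alternatives (median scaling, normexp, no filter and 16 left-out arrays). Over all alternatives this difference was 0.30 to 0.50.

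SUP-HD1 responded above L-540 by 0.82 and 0.54 for CD74 ILMN_1761464 and ILMN_2379644 and by 0.62 and 0.49 for HLA-DRA. KM-H2 minus SUP-HD1 was -0.61, -0.55 and -0.55 for the CD74 probes, and KM-H2 minus L-540 was -0.45 for CD74 ILMN_1736567. The mean of the resistant lines exceeded that of the sensitive lines by 0.46 for CD74 ILMN_1761464 and 0.61 for HLA-DMB. The class test used the spread between arrays and not that between lines of a class.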

How the results depend on the processing

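No probe changed sign while called. Of 4520 values of single probes under the alternatives, 4390 stayed on their side of the thresholds, 71 lost the call and 59 gained it. Counts of response differences that moved by over 1.5 times were those between L-540 and KM-H2 (1 probe, then 0 with median scaling or normexp background), between SUP-HD1 and L-428 (5, then 3 with median scaling and 2 with normexp) and between SUP-HD1 and KM-H2 (3, then 5 with quantile normalization within lines). Counts of single lines also moved by over 1.5 times with the methods' t-test, which called 3 probes in KM-H2 (limma 6), 2 in L-428 (limma 4) and 1 in SUP-HD1 (limma 2). It lost CD74 ILMN_1736567, CD74 ILMN_2379644 and HLA-DRA ILMN_1689655 in KM-H2, CD74 ILMN_2379644 and HLA-DMA in L-428, and CD74 ILMN_1761464 in SUP-HD1. The cause was not tested.

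Leaving out 1 array at a time gave 3 to 5 called probes for L-540, 2 for SUP-HD1, 5 to 6 for KM-H2 and 4 to 5 for L-428. For response differences it gave 0 to 1 between L-540 and KM-H2 (0 without L-540 control replicate 2, KM-H2 control replicate 1 or KM-H2 AEZS-136 replicate 3), 3 to 5 between SUP-HD1 and KM-H2 (5 without L-428 control replicate 1 or SUP-HD1 AEZS-136 replicate 3) and 3 to 7 between SUP-HD1 and L-428 (3 without L-428 control replicate 2, L-428 AEZS-136 replicate 1 or SUP-HD1 AEZS-136 replicate 1). With the replicate block the 4 lines had 4, 2, 6 and 4 called probes, as without it, and the same-numbered arrays correlated from -0.20 to 0.15.

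Over all tested probes, limma called 3915 for L-540, 2557 for SUP-HD1, 1582 for KM-H2 and 2665 for L-428. These were 3291, 1298, 613 and 1438 with the methods' t-test, 6612, 4711, 3183 and 5048 with normexp, and 7110, 5166, 3638 and 5366 without a minimum fold change. Fold changes of dim probes may be understated without background correction. With normexp the dim CD74 probe was at -0.62 in L-540, against -0.33 without it. The CIITA probe was not examined with normexp. The 3 arrays per group limit what small changes could be called.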
